A study of Mus musculus with 12 samples.

Results

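Early-passage parthenogenetic haploid embryonic stem cells (early phESCs) were compared with early-passage diploid embryonic stem cells (early diploid ESCs) of the mouse, both recorded as wild type, by reduced representation bisulfite sequencing (RRBS). RRBS cuts DNA with the enzyme MspI, sequences the short fragments, which are rich in CpGs, and gives, for each cytosine, the percentage of reads in which it was methylated. The members of the comparison were the cytosines of autosomes 1 to 19 with a value in both libraries, 4146985 of the 8119606 cytosines listed in the series. The phESCs are haploid cells of parthenogenetic, that is maternal, origin. The labels give neither the number of lines, nor the passage number, nor the culture medium of either library. The other libraries of the series were late phESCs, late diploid ESCs, early and late androgenetic haploid ESCs (ahESCs, of paternal origin), all wild type, and bimaternal (BM), bipaternal (BP) and wild-type (WT) embryos or brains. BM and BP samples carry knockouts of differentially methylated regions, and a BM embryo came from a phESC injected into an oocyte. Each group is 1 library, so that no value carries a replicate error and no difference was tested. Read depth behind each percentage is unknown.

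CpG methylation in mammals is copied to the new strand after replication by DNMT1 together with UHRF1, is laid down anew by DNMT3A and DNMT3B, and is removed by dilution or through oxidation by the TET enzymes. In mouse embryonic stem cells the overall level is known to depend strongly on culture conditions. Imprinted regions are the exception in that they normally carry the mark on the copy from only 1 parent, and zinc finger proteins such as ZFP57 keep it there through the loss of methylation in the early embryo.

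Promoter sequences of 5 genes frame the range of the comparison. Clcn4, Fv1 and Abcc9 were chosen because their promoters were far more methylated in early phESCs, Tex101 because it shows the partial loss typical of a methylated promoter, and Snrpn because its imprint was close to 0 in early phESCs. Each window runs from 250 bases before to 50 after the annotated start, 5′ to 3′ on the gene's strand, from RefSeq on GRCm38.p6. Capitals mark the CpGs. Coordinates of sequence windows are on GRCm38.p6, and all other coordinates in the text are on mm9, the build of the deposited positions.
Clcn4, chr7:7299508-7299807, minus strand: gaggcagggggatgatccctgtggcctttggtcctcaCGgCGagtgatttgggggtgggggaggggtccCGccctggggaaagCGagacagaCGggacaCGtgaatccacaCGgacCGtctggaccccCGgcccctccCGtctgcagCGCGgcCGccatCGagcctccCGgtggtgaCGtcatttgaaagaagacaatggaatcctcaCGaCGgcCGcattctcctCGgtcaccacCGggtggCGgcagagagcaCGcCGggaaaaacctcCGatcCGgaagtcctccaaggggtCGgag
Fv1, chr4:147868729-147869028, plus strand: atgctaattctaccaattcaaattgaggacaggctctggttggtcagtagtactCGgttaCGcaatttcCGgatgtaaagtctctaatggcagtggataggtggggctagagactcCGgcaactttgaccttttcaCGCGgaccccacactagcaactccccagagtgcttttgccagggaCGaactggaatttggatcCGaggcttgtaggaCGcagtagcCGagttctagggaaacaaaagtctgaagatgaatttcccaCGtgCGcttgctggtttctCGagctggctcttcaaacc
Abcc9, chr6:142702225-142702524, minus strand: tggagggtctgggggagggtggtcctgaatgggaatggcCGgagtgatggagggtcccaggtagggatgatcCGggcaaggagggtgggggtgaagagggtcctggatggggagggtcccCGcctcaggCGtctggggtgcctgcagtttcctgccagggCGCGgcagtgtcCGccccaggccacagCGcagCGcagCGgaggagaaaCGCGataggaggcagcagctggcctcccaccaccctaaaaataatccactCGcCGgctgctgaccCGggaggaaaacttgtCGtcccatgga
Tex101, chr7:24672001-24672300, minus strand: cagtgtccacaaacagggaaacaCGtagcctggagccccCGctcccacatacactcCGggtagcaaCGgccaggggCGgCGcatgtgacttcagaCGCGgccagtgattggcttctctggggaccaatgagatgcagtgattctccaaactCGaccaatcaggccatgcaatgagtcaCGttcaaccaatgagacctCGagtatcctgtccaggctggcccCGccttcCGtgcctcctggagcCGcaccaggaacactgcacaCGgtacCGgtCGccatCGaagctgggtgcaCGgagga
Snrpn, chr7:60005150-60005449, minus strand: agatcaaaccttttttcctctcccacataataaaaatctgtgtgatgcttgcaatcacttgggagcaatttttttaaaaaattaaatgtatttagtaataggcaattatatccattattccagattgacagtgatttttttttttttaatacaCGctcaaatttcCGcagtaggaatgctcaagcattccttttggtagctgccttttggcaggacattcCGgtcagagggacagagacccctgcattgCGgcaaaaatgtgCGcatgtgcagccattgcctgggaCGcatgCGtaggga

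The Clcn4 window holds 27 CpGs, of which 10 were measured in both libraries, with a mean of 65.5% in early phESCs (31.2 to 86.0%) and 6.60% in early diploid ESCs (0 to 14.3%). All 10 were higher in phESCs, and no CpG of one library reached into the range of the other. In the Fv1 window, 5 of 13 CpGs were measured and averaged 38.6% in phESCs and 0.339% in diploid ESCs, with 4 higher and 1 lower. The Abcc9 window has 16 CpGs, and its 2 measured ones averaged 38.6% in phESCs and 1.88% in diploid ESCs. The Tex101 window went the other way: its 11 measured CpGs of 19 averaged 50.8% in phESCs (35.5 to 68.5%) and 82.1% in diploid ESCs (68.4 to 90.2%), and all 11 were lower. The 2 measured CpGs of 7 in the Snrpn window averaged 0.388% in phESCs and 60.6% in diploid ESCs. Over 31396 autosomal windows of the same length, the median number of CpGs was 7 and the middle range 3 to 21, so that the Clcn4 window is among the CpG-rich ones. The ZFP57 motif TGCCGC, searched on both strands, is present in the Clcn4, Abcc9 and Snrpn windows, absent from those of Fv1 and Tex101, and present in 11.6% of all windows. A match is only a description of the letters.

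Methylation in early phESCs was lower almost everywhere that early diploid ESCs were methylated, and most methylated sites kept part of their methylation. Context was known for 382544 CpGs of the comparison, with both strands of a CpG averaged and MspI sites left out. They averaged 6.43% in early phESCs and 11.2% in early diploid ESCs. Most of these CpGs are unmethylated in every library. Over the 75625 CpGs that reached 20% somewhere in the other 10 libraries, the means were 29.2% in phESCs and 52.8% in diploid ESCs, a difference of -23.7 points with a median of -25.4. Of these CpGs 91.9% were lower in phESCs, 38485 (50.9%) by 25 points or more, while 119 (0.157%) were higher by as much.

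The shape of the distribution differed more than its mean. CpGs at 60% or more made up 10.6% of the 75625 in phESCs and 52.3% in diploid ESCs. CpGs between 20 and 60% made up 48.2% in phESCs and 22.5% in diploid ESCs, and CpGs under 20% made up 41.3% in phESCs and 25.2% in diploid ESCs. In a bulk library, fewer methylated cells and fewer methylated copies per cell cannot be told apart. On the same CpGs early ahESCs averaged 52.2%, late phESCs 23.3%, late diploid ESCs 19.6% and the WT embryo 68.0%. The phESC level thus lay between those of the early and the late diploid library. Cytosines of GC outside CpG averaged 0.488% in early phESCs and 0.527% in early diploid ESCs.

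The 2 strands of a CpG are covered by different reads and give a measure of part of the error within a library, not between cultures. The gap was taken over 68581 CpGs that were read on both strands and reached 20% outside the pair. Its median was 3.69 points in phESCs and 3.15 in diploid ESCs, against a median difference of -25.4 points between the libraries. The correlation between strands was 0.935 in phESCs and 0.982 in diploid ESCs, a description over CpGs of the same library.

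In 1 kb tiles with at least 3 such CpGs, 6055 of 26306 tiles (23%) were lower in early phESCs by 25 points or more and 17 (0.0646%) were higher. Among the 8064 tiles at 25% or more in diploid ESCs, 75.1% were lower by this measure. Of 5733 lower tiles read on both strands, 5095 were lower by 25 points on each. Early ahESCs, set against the same diploid library, had 29 lower (0.111%) and 24 higher tiles (0.0915%) of 26227. The 2 comparisons share the early diploid library, and the difference between them was not tested.

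**Figure D1:**
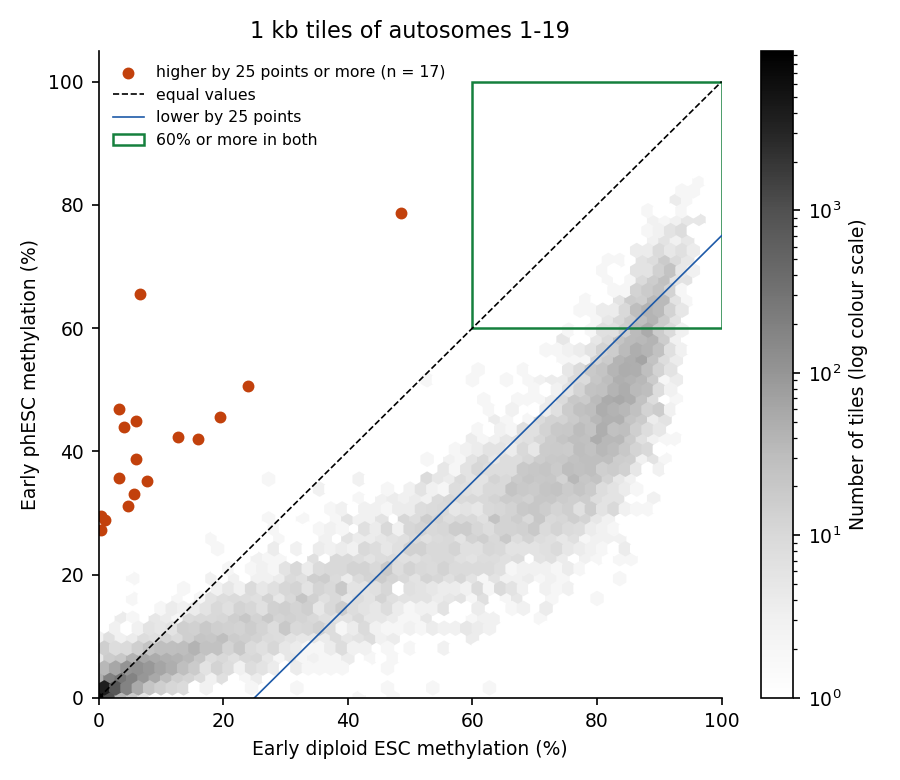
Methylation of 26306 tiles of 1 kb in early phESCs (vertical axis, %) against early diploid ESCs (horizontal axis, %), with grey shade for the number of tiles on a log colour scale. The cloud bends below the dashed line of equal values, 6055 tiles lie below the blue line of a 25-point loss, 17 orange tiles lie above, and the green box holds the 835 tiles at 60% or more in both.

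The share that remained depended on the starting level. CpGs were binned by early ahESCs, a library outside the pair whose level was close to that of the diploid cells, so that neither compared value set the bin. CpGs at 90 to 100% in ahESCs had 64.7% in phESCs and 90.8% in diploid ESCs, a remaining share of 71.2%. CpGs at 50 to 60% had 24.4% in phESCs and 54.6% in diploid ESCs, a remaining share of 44.7%. Those at 20 to 30% had 12.1% in phESCs and 24.0% in diploid ESCs, a share of 50.3%. Among bins from 20% up, the lowest share was therefore at 50 to 60% and the highest at 90 to 100%. In the bin under 10%, both libraries were close to 0, with 0.867% in phESCs and 0.999% in diploid ESCs, and the share there was 86.8%.

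**Figure D2:**
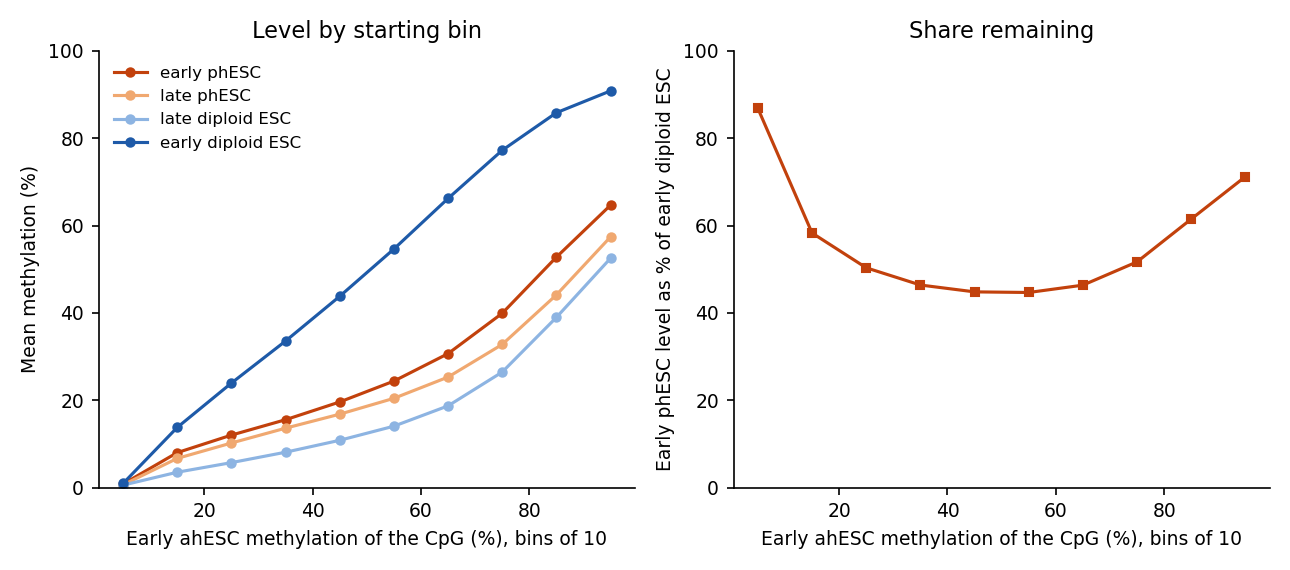
Left, mean CpG methylation (%) in 4 libraries by bin of early ahESC methylation; right, the early phESC level as a percentage of the early diploid ESC level in the same bins. The early phESC curve runs below the early diploid curve in each bin and above the late diploid curve, and the remaining share is 86.8% in the bin under 10%, where both levels are close to 0, dips to 44.7% at 50 to 60% and is 71.2% at 90 to 100%.

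Loss was present on all autosomes. Over CpGs that reached 20%, the remaining share ran from 52.6% on chromosome 7, with 24.0% in phESCs and 45.6% in diploid ESCs, to 57.9% on chromosome 12, with 27.4% in phESCs and 47.3% in diploid ESCs.

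The remaining share differed by a few points with position relative to genes. The groups compared also differed in diploid level, and the part of each in the share was not tested. Among 39187 CpGs at 60% or more in early ahESCs, phESCs averaged 45.4% and diploid ESCs 79.7%, a remaining share of 56.9%. CpGs 1000 to 2000 bp from the nearest placed gene start had 39.6% in phESCs and 76.7% in diploid ESCs (51.6% remaining, 1355 CpGs). CpGs 20000 bp or more away had 48.1% in phESCs and 81.1% in diploid ESCs (59.3% remaining, 17434 CpGs). By density, tiles with 1 to 2 measured CpGs kept 58.3% of the diploid level and tiles with 11 to 20 kept 53.5%. First, internal and last exons kept 56.2, 58.0 and 57.0%, and pseudogenes, protein-coding and long noncoding genes 55.7, 57.0 and 58.2%.

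**Figure D3:**
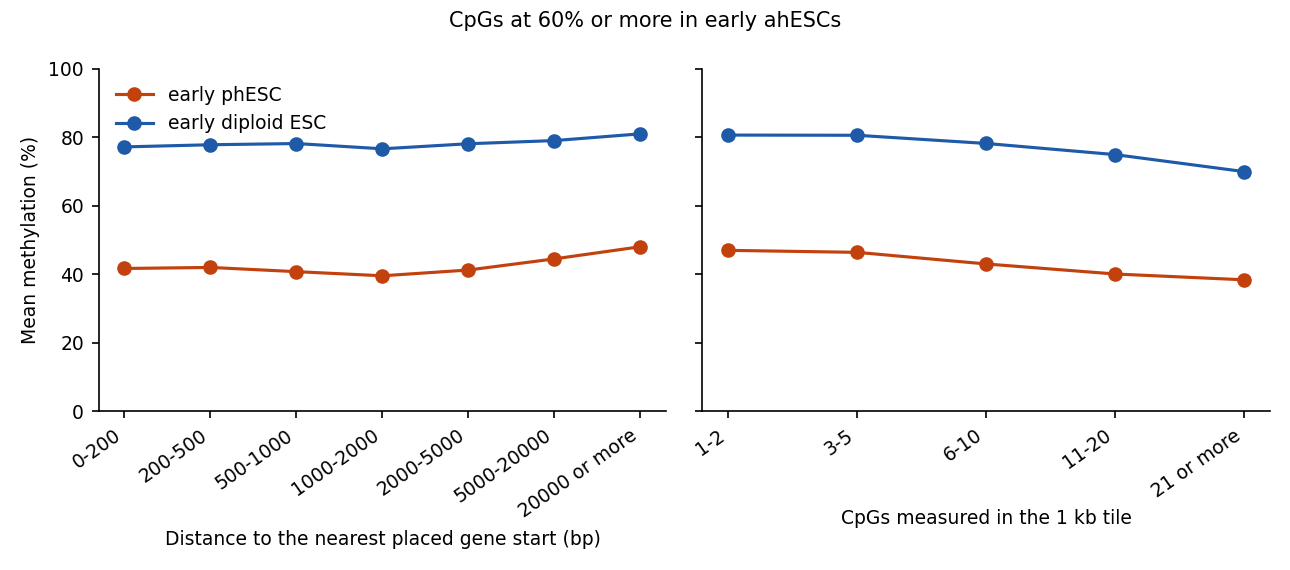
Mean methylation (%) of CpGs at 60% or more in early ahESCs, in early phESCs (orange) and early diploid ESCs (blue), by distance to the nearest placed gene start (left, bp) and by the number of CpGs measured in the 1 kb tile (right). The gap between the curves spans every bin, and the phESC value is 39.6% at 1000 to 2000 bp and 48.1% from 20000 bp on.

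The remaining share also varied with the bases next to the CpG. Among 9 contexts of 4 bases, each pooled with its reverse complement, the remaining share was lowest at GCGC, with 41.8% in phESCs and 80.5% in diploid ESCs (52.0%), and highest at CCGA, with 49.9% in phESCs and 80.3% in diploid ESCs (62.2%). Among 115 contexts of 6 bases with at least 100 CpGs, the median share was 56.4%. The lowest was AGCGAC, with 35.4% in phESCs and 78.1% in diploid ESCs (45.3%, 296 CpGs), next to CACGTG, with 33.8% in phESCs and 74.4% in diploid ESCs (45.4%, 253 CpGs). CACGTG is the E-box letters that many basic helix-loop-helix factors recognise. The highest was GCCGTA, with 60.8% in phESCs and 85.6% in diploid ESCs (71.0%, 246 CpGs). These are values over CpGs of single libraries, and the contexts at the ends were picked for their values.

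Of 5958 tiles at 60% or more in early diploid ESCs, 835 (14.0%) were also at 60% or more in early phESCs, and 143 (2.40%) were at 20% or less. Across the 5958 tiles the median was 45.2% in phESCs and 81.2% in diploid ESCs, and the central range in phESCs ran from 24.4 to 67.2% (the 5th to 95th percentile). Even the tiles that kept methylation had lost some: they averaged 66.4% in phESCs and 89.1% in diploid ESCs, and only 2 of the 5958 had a higher value in phESCs. The classes were chosen by the values of the pair. They were also chosen on the plus strand and read on the minus strand, which bears on error within a library only. Both strands come from the same libraries, so that agreement between them does not free the classes from that choice. The 727 tiles kept on the plus strand had 63.9% in phESCs and 88.7% in diploid ESCs on the minus strand, and 520 met the rule there. The 118 nearly lost tiles had 17.5% in phESCs and 65.8% in diploid ESCs on the minus strand, and 62 met the rule there.

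In libraries that the choice did not use, kept and nearly lost tiles also lay apart. In early diploid ESCs the kept tiles averaged 89.1% and the nearly lost tiles 67.7%. The part of this starting level in the other libraries was not tested. The kept tiles averaged 87.2% in early ahESCs, 52.4% in late phESCs and 51.4% in late diploid ESCs. The nearly lost tiles averaged 66.0% in early ahESCs, 23.4% in late phESCs and 10.7% in late diploid ESCs. The median distance to a gene start was 28397 bp for kept tiles, 5340 bp for nearly lost tiles and 16721 bp for all 5958 high tiles. Within 1 kb of a start lay 3.59% of kept, 17.5% of nearly lost and 7.91% of all high tiles. Chosen without either compared library, the 132 tiles at 60% or more in both early ahESCs and late diploid ESCs had 71.6% in early phESCs and 91.3% in early diploid ESCs (78.4% remaining). The 1163 tiles at 60% or more in early ahESCs and 20% or less in late diploid ESCs had 29.1% in early phESCs and 68.9% in early diploid ESCs (42.2% remaining). Over tiles at 60% or more in early ahESCs, the early phESC level correlated with that of late diploid ESCs at r = 0.867 (5830 tiles). With late ahESCs r was 0.700 (5232 tiles) and with late phESCs 0.666 (4939 tiles), a description across tiles that share starting level and CpG content.

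The 10 tiles with the highest phESC values had 83.0 to 89.5% there. The tile of Mmp2, a collagen-degrading metalloprotease, at chr8:95360000-95360999, had 89.5% in phESCs and 99.4% in diploid ESCs. The tile of Itpr2, a calcium release channel, had 88.0% in phESCs and 100% in diploid ESCs. Loxhd1, needed in hair cells of the inner ear, had 85.6% in phESCs and 98.1% in diploid ESCs. Mtfmt, which formylates the mitochondrial initiator tRNA, was nearly level with 85.2% in phESCs and 85.4% in diploid ESCs over 3 CpGs on 1 strand. Grk1, the rhodopsin kinase, had 84.2% in phESCs and 97.0% in diploid ESCs, and D10Wsu102e had 83.0% in phESCs and 97.9% in diploid ESCs. The others were Gm44248, Gm49303, 6720469O03Rik and Lmtk2, at 83.3 to 85.4% in phESCs and 93.0 to 95.7% in diploid ESCs. The tiles of Mmp2, Loxhd1, Grk1, 6720469O03Rik and D10Wsu102e were read on both strands, each with a lower phESC value on both.

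The steepest losses among high tiles were in Foxj1, the regulator of motile cilia, with 11.5% in phESCs and 90.6% in diploid ESCs at chr11:116192000-116192999, and in the apolipoprotein gene Apod, with 9.13% in phESCs and 80.2% in diploid ESCs. Gm43305 had 2.86% in phESCs and 73.2% in diploid ESCs, Nectin2, a cell adhesion molecule, 12.3% in phESCs and 81.7% in diploid ESCs, and Noct, a circadian gene, 13.4% in phESCs and 80.6% in diploid ESCs. The remaining 5 of the 10, in 1700017B05Rik, Gm5320, Triml2, Aen and Prune2, had 12.01 to 18.4% in phESCs and 78.6 to 88.5% in diploid ESCs. The Foxj1 tile rests on 3 CpGs read on the minus strand only. The Apod and Prune2 tiles rest on 5 and 3 CpGs read on the plus strand only. At Gm43305 the difference was -39.6 points on the plus strand and -70.2 on the minus strand. All 10 tiles were picked after their values were seen, as were the gene bodies that follow.

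Gene bodies were read over CpGs at least 1000 bp from a gene start. In 2299 genes at 60% or more in early ahESCs, the median remaining share was 56.8%, and 38.2 to 72.0% spanned the 5th to 95th percentile. With at least 20 CpGs, the lowest share was in Kat14, a subunit of the ATAC acetyltransferase complex, with 16.5% in phESCs and 69.9% in diploid ESCs (23.6%). Arid5b, a DNA-binding regulator, followed with 15.7% in phESCs and 64.9% in diploid ESCs (24.1%). At the other end were D10Wsu102e, with 71.1% in phESCs and 92.1% in diploid ESCs (77.2%), and Ptpn21, a protein tyrosine phosphatase, with 47.7% in phESCs and 58.3% in diploid ESCs (81.8%). A tile of 4 CpGs in the last exon of Ptpn21 was higher in phESCs, with 42.0% there and 16.0% in diploid ESCs. The 42 zinc finger genes named Zfp had a median share of 54.2%, close to that of all genes, and the 3 olfactory receptor genes 58.2%.

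Promoters were read over a window reaching 1000 bp before the start and 500 bp past it, with at least 6 cytosines that reached 20% outside the pair. In early phESCs, 682 of 4367 promoters (15.6%) were lower by 25 points or more and 7 (0.16%) were higher. The medians over all promoters were 7.61% in phESCs and 8.93% in diploid ESCs, since most promoters are unmethylated in both. Of the 1333 promoters at 25% or more in diploid ESCs, 51.2% were lower. Of the 605 at 60% or more, 62 (10.2%) kept 60% in phESCs.

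The 10 largest losses among promoters with at least 10 cytosines included imprinted and other genes. The promoter of Dnah6, an axonemal dynein, at chr6:73171125-73172625, had 13.1% in phESCs and 71.0% in diploid ESCs. Snrpn and its overlapping upstream partner Snurf, imprinted genes of the Prader-Willi domain, had 1.31% and 1.21% in phESCs and 58.1% and 57.7% in diploid ESCs. The shared promoter of Dnajc5g and the synaptic vesicle zinc transporter gene Slc30a3 had 8.45% in phESCs and 64.7% in diploid ESCs. Brpf3, a partner of histone acetyltransferases, had 18.8% in phESCs and 74.7% in diploid ESCs, and the pseudogene Rps26-ps1 27.6% in phESCs and 82.7% in diploid ESCs. Peg13, an imprinted noncoding RNA, had 1.22% in phESCs and 53.7% in diploid ESCs. The pseudogenes AC133941.1 and AC113104.2 had 20.9% and 18.8% in phESCs and 77.8% and 71.9% in diploid ESCs. In late diploid ESCs, 9 of the 10 promoters had a value, 0.960 to 17.5%.

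The 10 promoters that stayed highest were led by 6720469O03Rik at chr7:38151149-38152649, with 82.9% in phESCs and 92.8% in diploid ESCs. Pseudogenes came next, Glns-ps1 with 76.7% in phESCs and 93.1% in diploid ESCs, AC132235.3 with 76.4% in phESCs and 93.1% in diploid ESCs, and Hmgb1-ps8 with 68.6% in phESCs and 88.9% in diploid ESCs. Ucp3, a mitochondrial carrier of muscle and brown fat, had 66.9% in phESCs and 89.8% in diploid ESCs, and Kif1a, a motor of synaptic vesicle precursors, 66.7% in phESCs and 85.0% in diploid ESCs. Krt83, a hair keratin, had 66.4% in phESCs and 88.0% in diploid ESCs over 25 cytosines. Wfdc15a, 4930505M18Rik and Frmd5 had 66.6 to 67.7% in phESCs and 81.6 to 93.8% in diploid ESCs. None of the 10 was as high in phESCs as in diploid ESCs.

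**Figure D4:**
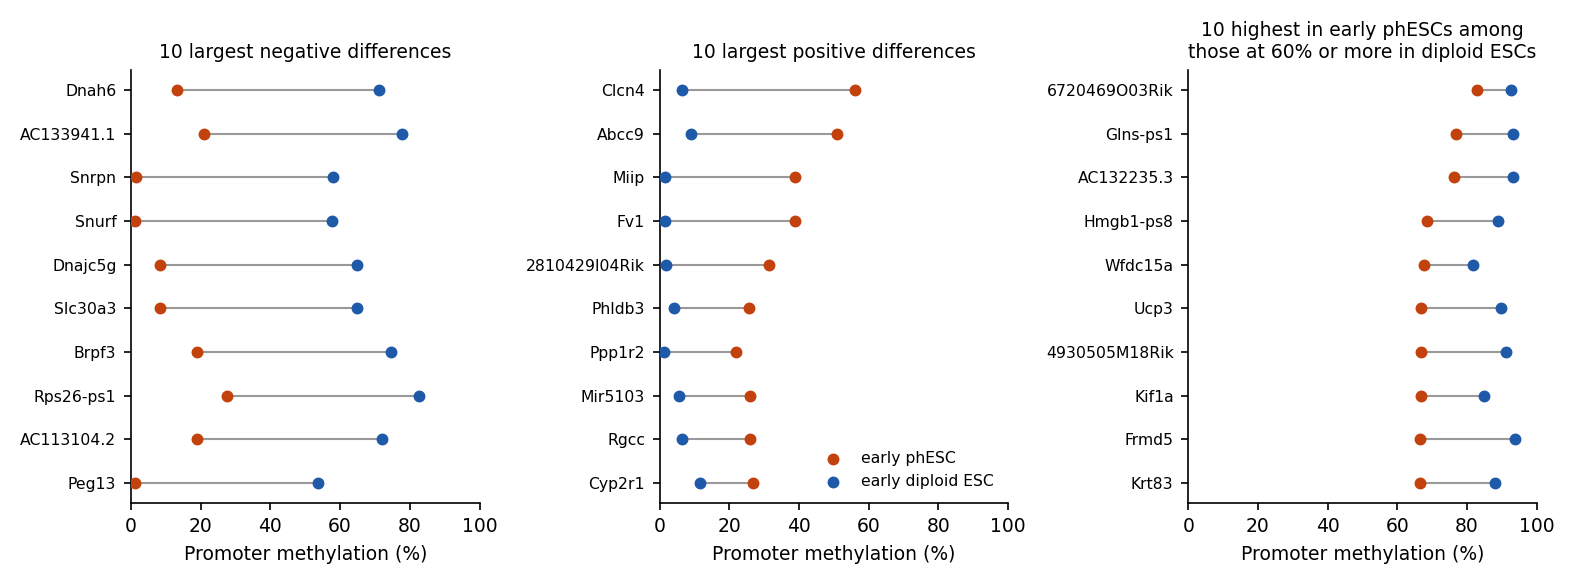
Promoter methylation (%) in early phESCs (orange) and early diploid ESCs (blue) for the promoters with at least 10 cytosines that had the 10 largest negative differences, the 10 largest positive differences, and the 10 highest phESC values among those at 60% or more in diploid ESCs. Snrpn, Snurf and Peg13 are near 0 in phESCs, Clcn4 and Abcc9 exceed 50% there, and the kept promoters remain below the diploid values.

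Imprinted promoters normally differ between the parental copies, and most of those measured were close to 0 in early phESCs. Of 16 promoters known to be methylated on the maternal copy, 12 were measured. Their median was 1.54% in early phESCs (1.05 to 46.6%), 47.2% in early diploid ESCs (0.776 to 76.4%) and 61.4% in the BM embryo. In 9 of the 12 the phESC value was lower by 25 points or more, against 15.6% of all promoters. The median of the 12 was also low in late phESCs (3.21%), late diploid ESCs (1.46%) and early ahESCs (3.07%). Peg3 had 2.80% in phESCs and 53.2% in diploid ESCs, Nap1l5 2.22% in phESCs and 54.4% in diploid ESCs, and Peg10 1.47% in phESCs and 47.0% in diploid ESCs. Plagl1, with 76 cytosines, had 1.32% in phESCs and 42.1% in diploid ESCs, while Zrsr1 had 1.22% in phESCs and 47.3% in diploid ESCs, and Nnat 1.60% in phESCs and 44.6% in diploid ESCs. The amino acid transporter gene Slc38a4 had 46.6% in phESCs and 76.4% in diploid ESCs. It was at 76.2% in early ahESCs and 92.6% in the BP embryo, so that its window was high also in libraries of paternal origin. Slc38a4 is among the 9 and gives the highest value of the 12 in both compared libraries. Mcts2, Nespas and Grb10 were at 17.0% or less in both. In the WT embryo the Grb10 window was low too (7.79%), while Mcts2 had 68.2% and Nespas 59.7% there. The median of the 12 was as low in late diploid ESCs, and the parental origin of the early phESC library was not tested with these 12 promoters. Of the paternally methylated pair, Meg3 had 2.82% in phESCs and 51.1% in diploid ESCs, with 44.1% in early ahESCs and 4.23% in late diploid ESCs, and H19 had no value. The Y chromosome had values at 97 positions in early phESCs and 1587 in early diploid ESCs, against 22 in early ahESCs and 1470 in the WT embryo.

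Promoters of germline genes, which are known to be silenced by promoter methylation outside the germ line, were measured for 24 of 38 listed genes. In phESCs 23 of the 24 (95.8%) were below the diploid value, against 71.7% of all promoters. By 25 points or more 6 were lower (25%, against 15.6% of all promoters) and 0 higher. Of the 18 at 25% or more in diploid ESCs, the 6 were 33.3%, against 51.2% of all promoters at that level. The medians were 21.7% in phESCs and 37.7% in diploid ESCs. Ccdc42, a protein of the sperm tail, had 41.5% in phESCs and 73.8% in diploid ESCs. Tex101, the testis surface protein whose window is printed above, had 50.8% in phESCs and 81.7% in diploid ESCs. Among piRNA genes, Asz1 had 35.2% in phESCs and 61.3% in diploid ESCs, and Fkbp6 17.8% in phESCs and 45.1% in diploid ESCs. Smc1b, the meiotic cohesin subunit, had 8.80% in phESCs and 34.7% in diploid ESCs, and Ccer1 24.96% in phESCs and 51.0% in diploid ESCs. The exception in direction was Rnf17, with 10.7% in phESCs and 1.88% in diploid ESCs.

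Most promoters of the other lists were unmethylated or not measured. In the DNA methylation machinery 6 of 27 were measured, and 1 was lower: Tet1, the dioxygenase that starts the removal of methylation, had 13.6% in phESCs and 64.7% in diploid ESCs over 12 cytosines that reached 20% elsewhere. A separate window, from 250 bases before to 50 after an annotated Tet1 start, was unmethylated in both libraries. It had 0.531% in phESCs and 0.778% in diploid ESCs over 7 CpGs. That window was chosen by a different rule and may belong to another start than the promoter above. The Tet1 promoter of 12 cytosines had 71.2% in early ahESCs, 34.2% in late phESCs and 6.72% in late diploid ESCs. The 5 other machinery promoters measured were under 25% in both libraries. Of 20 pluripotency genes 3 were measured, with 0 past 25 points, of 13 trophoblast genes 4 with 0, of 16 developmental regulators 7 with 0, and of 13 fibroblast and feeder genes 3 with 0. Among 14 neural and astrocyte genes 4 were measured, and Aqp4, the astrocyte water channel, was lower with 48.3% in phESCs and 81.1% in diploid ESCs. The single measured gene of the 14 of the 2-cell stage, Duxf3, a copy of the Dux activator, had 27.0% in phESCs and 54.0% in diploid ESCs. Copies of Dux are near-identical, so that reads may be shared between them.

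Processed copies of ribosomal protein genes formed the family with the most lower promoters. Of 38 such pseudogenes measured, 25 were lower and 0 higher, with medians of 35.7% in phESCs and 72.7% in diploid ESCs, against 15.6% of all promoters lower. They started high, with 33 of 38 at 25% or more in diploid ESCs. Of those 33, 75.8% were lower, against 51.2% of all promoters at that level. After Rps26-ps1, the largest losses were in Rps19-ps5, with 32.2% in phESCs and 84.3% in diploid ESCs, and Rpl19-ps10, with 45.7% in phESCs and 95.4% in diploid ESCs. The other 22 that were lower had 11.5 to 64.8% in phESCs and 44.1 to 90.0% in diploid ESCs. Of 7 olfactory receptor promoters 4 were lower, Olfr71 the most, with 27.6% in phESCs and 72.7% in diploid ESCs, and Olfr523, Olfr314 and Olfr284 had 47.4 to 59.5% in phESCs and 84.8 to 90.8% in diploid ESCs. The vomeronasal receptor gene Vmn2r29 had 25.3% in phESCs and 53.2% in diploid ESCs. Of 55 Zfp promoters 5 were lower, Zfp42-ps1, Zfp385b, Zfp462, Zfp791 and Zfp180, with 20.5 to 52.3% in phESCs and 45.6 to 86.9% in diploid ESCs. The 18 protocadherin and 15 Hox promoters had 0 past 25 points in either direction. Few of them could fall so far, with 2 of the protocadherin and 3 of the Hox promoters at 25% or more in diploid ESCs. At that level were 10 Zfp promoters, 50% of them lower, and 6 olfactory receptor promoters, 66.7% of them lower. Of all promoters at that level, 51.2% were lower.

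Against this loss, 17 tiles and 7 promoters were higher in early phESCs by 25 points or more. Fv1 and Miip share their cytosines and values but are counted as separate promoters. Clcn4, Abcc9, Miip, 2810429I04Rik and Pttg1 are among both the tiles and the promoters. The higher tiles averaged 42.3% in phESCs and 9.97% in diploid ESCs, and 7 of them (41.2%) lay within 1 kb of a gene start, against 61.4% of all tiles and 83.9% of tiles under 25% in diploid ESCs. Of 14 read on both strands, 10 passed 25 points on each. Of 13 tiles chosen on the plus strand alone, all 13 were higher on the minus strand too, with 39.6% in phESCs and 9.38% in diploid ESCs there, and 9 passed 25 points. The strands come from the same libraries, so that this bears on error within a library only. Just under the threshold, 6 tiles were higher by 20 to 25 points. Of 17081 tiles under 10% in diploid ESCs, 18 reached 20% in phESCs.

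Among promoters and tiles of known context, the largest gain was at Clcn4, which codes for an endosomal chloride-proton exchanger. Its promoter, chr7:7251017-7252517, had 56.0% in phESCs and 6.28% in diploid ESCs over 21 cytosines. It was also methylated in late diploid ESCs (39.7%), early ahESCs (34.3%), late ahESCs (26.0%), the BM embryo (60.03%) and the WT embryo (44.5%), but had 2.46% in late phESCs and 2.31% in the BP embryo. The BM embryo was thus high and the BP embryo low, and the early diploid library was low where the late one was not.

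Abcc9, a regulatory subunit of ATP-sensitive potassium channels, had 51.0% in phESCs and 9.005% in diploid ESCs at chr6:142650293-142651793. It had 36.7% in late diploid ESCs and 34.9% in late ahESCs, but 7.52% in early ahESCs and 2.57% in the WT embryo. The shared promoter of the retroviral restriction gene Fv1 and of Miip, at chr4:147242088-147243588 for Fv1, had 38.7% in phESCs and 1.39% in diploid ESCs over 35 cytosines. Of the other libraries, late diploid ESCs had 35.5% there, late phESCs 1.21% and the WT embryo 2.16%. The methylation seen in early phESCs at Abcc9 and at Fv1 and Miip was thus also present in late diploid ESCs. It was low in the early ahESC, early diploid and embryo libraries. Promoter cytosines had to reach 20% outside the pair, which can raise the late diploid values. In tiles of known context, without that filter, late diploid ESCs had 27.9% at Abcc9 and 25.3% at Miip. Early phESCs had 44.0% and 29.4% in these tiles, and early diploid ESCs 4.07% and 0.399%.

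The other higher promoters were Pttg1, coding for securin, with 51.9% in phESCs and 18.4% in diploid ESCs, E030030I06Rik with 37.6% in phESCs and 2.55% in diploid ESCs, each over 8 cytosines, and the noncoding 2810429I04Rik with 31.4% in phESCs and 1.79% in diploid ESCs over 28. Below 25 points, the 10 largest gains closed with Phldb3, Ppp1r2, Mir5103, Rgcc and Cyp2r1, the last a vitamin D hydroxylase. They had 22.04 to 26.7% in phESCs and 1.34 to 11.5% in diploid ESCs. In late phESCs the 5 higher promoters with a value, Fv1 and Miip counted separately, had 0 to 4.61%.

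**Figure D5:**
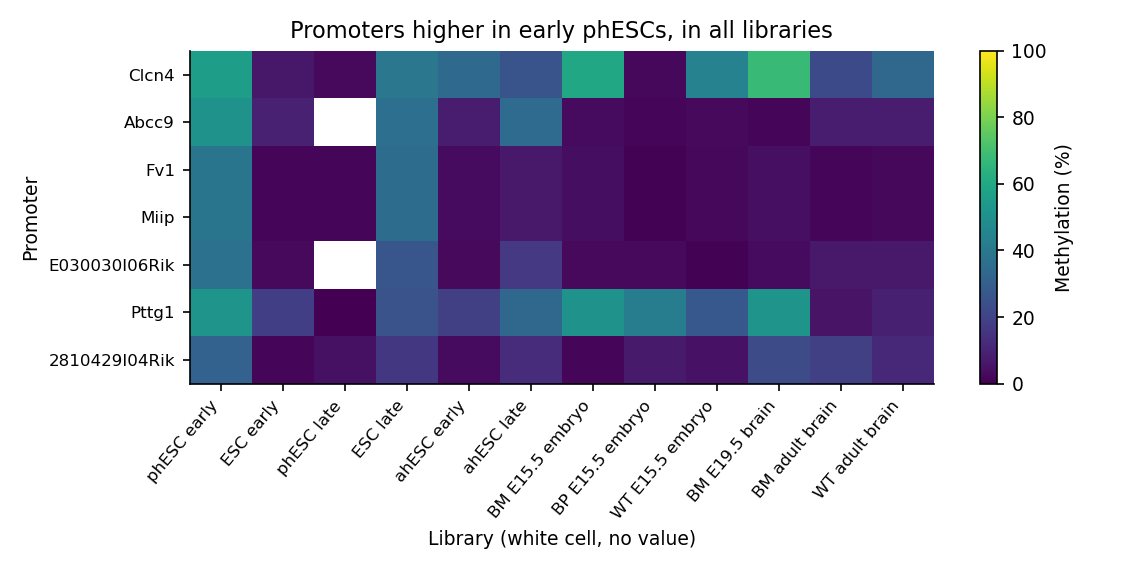
Methylation (%, colour) of the 7 promoters higher in early phESCs by 25 points or more, in all 12 libraries, with white for no value. The early phESC column runs from 31.4 to 56.0% and the early diploid column from 1.39 to 18.4%, while the late diploid column runs from 16.4 to 39.7% and the 5 late phESC values from 0 to 4.61%.

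Of the other higher tiles, that of Ppfia3, a scaffold of the synapse, had 44.8% in phESCs and 5.96% in diploid ESCs, and Otud7a, a deubiquitinase gene, 38.7% in phESCs and 5.94% in diploid ESCs. A tile of Sult2b1, a sterol sulfotransferase gene, lay within 1 kb of a gene start and had 35.7% in phESCs and 3.22% in diploid ESCs. Gm3822 had 46.8% in phESCs and 3.33% in diploid ESCs, and D16Ertd472e, also within 1 kb of a gene start, 42.3% in phESCs and 12.7% in diploid ESCs. The 17 tiles averaged 23.9% in late diploid ESCs, 15.1% in early ahESCs and 43.9% in the WT embryo, and the 11 measured in late phESCs averaged 9.79% there.

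Over all listed cytosines that reached 20%, without the need for known context, the comparison had 777182 cytosines and 96984 tiles. Their means were 37.1% in phESCs and 60.1% in diploid ESCs, 50746 tiles (52.3%) were lower by 25 points or more, and 99 (0.102%) were higher. Of 63212 tiles at 60% or more in diploid ESCs, 22.5% kept 60% in phESCs and 0.971% were at 20% or less. The 99 higher tiles averaged 44.9% in early phESCs and 11.4% in early diploid ESCs, and in the other libraries 27.9% in late diploid ESCs, 22.1% in early ahESCs, 30.2% in late ahESCs, 8.09% in late phESCs and 59.7% in the WT embryo. Each cytosine had to reach 20% in a library outside the pair, so that the filter can raise the means of those libraries.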

How the data were processed

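The authors' deposited table gives, per the labels and the submitters' processing notes (Trim Galore, Bismark 0.13.1, mm9), a methylation percent for each cytosine of 12 libraries, with N for no value. Depth is unknown, and the precision it gives cannot be stated.

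The table does not give context and lists cytosines of CG and GC. GENCODE M21 exons and RefSeq promoter windows (GRCm38) were matched to the pattern of listed mm9 positions, at least 8 matching without exception, with no coordinate converted. This placed 82642 of 109315 exons (75.6%); moved by 2017 bp as a check, 5 of 53018 still matched. The upstream part of a promoter assumes that its sequence lies in the same order in mm9. CCGG sites, where MspI cuts, were left out of CpG means and tiles but not of promoters.

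With 1 library per group, differences of 25 points in either direction were counted and not tested. Members and gene lists (germline, DNA methylation machinery, pluripotency, 2-cell, trophoblast, neural, developmental, fibroblast and feeder, imprinted, and families by symbol) were chosen with earlier results of these data known. Named are listed genes past 25 points, imprinted promoters at 25% or more or past 25 points, and the 10 largest differences each way and 10 highest kept, among promoters with at least 10 cytosines and among tiles. The rule also names 1 tile that is not reported here. Gene bodies, sequence contexts and the most lost tiles were chosen after their values were seen. Imprinted regions were read at promoters only. Scripts were tested on simulated data. Python 3.11.15, NumPy 2.4.6, pandas 2.3.3 and Matplotlib 3.10.9 were used.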

Additional observations from a re-analysis of the deposited data

How the results depend on the processing

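No result changed direction under the alternatives run. The mean difference over CpGs, -4.77 points, was -5.73 with CCGG sites, -5.46 with exons only (chosen after seeing the data), -23.7 over CpGs that reached 20% and -25.4 as their median, and -22.99 over all cytosines that reached 20%, sets that leave out unmethylated sites. Lower tiles numbered 2425 with at least 5 CpGs (12.6% of tiles, against 23%), 316 with at least 10 (2.63%), 50746 over all cytosines that reached 20% (52.3%) and 1531 at 40 points (5.82%). Higher tiles numbered 6, 4, 99 and 2 in the same order. Tiles that kept methylation, 14.0% of high tiles, numbered 231 (10.54%), 14 (5.74%) and 14215 (22.5%) under the first 3 of these, and 17 (0.285%) when the difference had to be above -10 points. With at least 10 cytosines, 385 promoters were lower (22.5%) and 27 kept methylation (8.36% of high ones), and over CpGs of known context without the 20% filter 124 (1.07%) and 6 (6.59%). Tiles of 500 bp, medians within tiles or promoters and exons only left each count within 1.5 times, as did each alternative for the higher promoters (5 to 7). No paired analysis was possible because each group holds 1 library, and no replicate could be left out. Coverage below a minimum could not be filtered, since no read counts were used here.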

Other observations

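On chromosome X, outside the autosomal comparison, 3135 tiles of cytosines that reached 20% averaged 35.5% in early phESCs and 58.9% in early diploid ESCs. The median difference was -26.9 points, and 1694 tiles were lower by 25 points or more while 1 was higher.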
